A study of Mus musculus with 6 samples.

Results

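Interferon response genes are the genes that cells switch on when an interferon binds its receptor, and 31 of a list of 33 such genes could be measured here in the skull roof of mice. The list was set by gene name, and each gene is represented by 1 probe set of a mouse expression array, a group of probes for one transcript. The probe set taken was that with the highest mean signal among those annotated with a single gene symbol, and no gene was left out for being dim. Isg15 and Ifi44 had no probe set with that symbol alone and are not analysed here. The 31 genes were read from a comparison of 18193 genes in all.

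The samples were calvaria, specifically the parietal bones, taken at postnatal day 10. The mice of interest were 13del-tg transgenics, which express a Col10a1-13del transgene and carry the label of bone overgrowth, and they were set against wild type control littermates. From other work the transgene is known to encode a collagen X chain that carries a deletion and misfolds. The promoter of the transgene, the strain background and the sex of the animals are not stated in the labels. Each genotype has 3 biological replicates by label, 1 array each, and whether animals were pooled is not stated.

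The values deposited for 13del-tg 1 and for control 1 were identical for 45101 of 45101 probe sets. An array cannot have both genotypes, so that array, called the shared array, was left out of the comparison and is given apart, and 13del-tg 2 and 3 were compared with controls 2 and 3. The transgene's own signal separated these arrays, with Col10a1 at 15689 and 11584 in 13del-tg 2 and 3, against 149.8 and 158.2 in controls 2 and 3, and 152.2 on the shared array. The log2 difference was 6.31 (SE 0.21, limma adjusted p = 0.000532), and Col10a1 was the 1 gene of 18193 that passed an adjusted p of 0.05. The array 13del-tg 3 stood apart in Xist, the transcript of the inactive X chromosome, at 15206, against 57.6 in 13del-tg 2, 55.6 and 84.5 in the controls and 29.9 on the shared array. It also stood apart in the Y-linked Eif2s3y, at 11.1, against 1652 in 13del-tg 2, 1910 and 1687 in the controls and 1863 on the shared array. By these signals 13del-tg 3 was female and the other arrays male, so sex was not balanced between the genotypes. The part of sex in the differences below was not tested. Osteoblast markers were bright on every array, as in Col1a1 with 46123 and 48236 in 13del-tg against 42618 and 46275 in controls. The summed signal of 6 cartilage markers was 1993 in 13del-tg 3, against 8955 in 13del-tg 2 and 24888 and 5725 in controls 2 and 3. That of 6 muscle markers was 155780 and 122282 in 13del-tg, against 114353 and 19930 in controls 2 and 3, so control 3 stood apart.

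Type I interferons signal through a receptor and its kinases to a complex with STAT2 and IRF9, which binds the interferon-stimulated response element in the promoters of its targets. Interferon gamma acts on a different site, the gamma-activated sequence, and raises IRF1, which shares the first element. In mouse bone, interferons are known to restrain the formation of osteoclasts. The bone samples held many cell types, so that fewer cells of a type and less RNA per cell cannot be told apart in any value below.

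Promoter sequences are shown because the pathway acts through them. RefSeq promoter sequences of the mouse build GRCm38.p6, from 250 bases before to 50 after a gene's start, matched 25 of the 33 genes, and the response element's core, GAAA and GAAA separated by any 2 bases, was searched on both strands. It was found in 13 of these 25 genes, 52.0%, against 3.99% of 27025 genes in the table. The gamma-activated sequence, TTCNNNGAA, which reads the same on both strands, was found in 6 of 25, against 9.55% of genes. Matches of both motifs overlapped in Bst2. A match describes the letters only. The stretches below carry the core in capitals, in genes with negative and genes with positive differences between the genotypes, and all lie before the transcript start that the promoter table uses, which need not be the outermost start of the gene. The Rsad2, Trim30a and Cxcl10 stretches are on the minus strand, at chr12:26456543-26456592, chr7:104465200-104465249 and chr5:92349073-92349122. Those of Igtp, Gbp3, Ifit1 and Ifit3 are on the plus strand, at chr11:58199502-58199551, chr3:142559979-142560034, chr19:34640765-34640833 and chr19:34583353-34583436.
Rsad2: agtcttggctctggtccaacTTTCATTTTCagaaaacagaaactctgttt
Trim30a: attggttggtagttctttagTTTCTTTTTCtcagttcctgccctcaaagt
Igtp: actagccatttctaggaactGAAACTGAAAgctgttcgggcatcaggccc
Ifit3: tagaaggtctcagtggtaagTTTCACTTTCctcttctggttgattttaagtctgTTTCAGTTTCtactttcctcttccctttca
Ifit1: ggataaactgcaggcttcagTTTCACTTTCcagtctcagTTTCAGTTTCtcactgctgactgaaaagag
Gbp3: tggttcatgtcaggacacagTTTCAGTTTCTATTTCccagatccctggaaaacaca
Cxcl10: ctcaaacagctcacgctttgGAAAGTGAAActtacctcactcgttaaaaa

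The promoter letters did not sort the genes by direction. Of the measured genes with the core, 7 had a negative difference between 13del-tg and control and 5 a positive one. Of those with a promoter but no match, 8 were negative and 3 positive. The Ifit1 and Ifit3 stretches hold the same pair of matched letters, and the 2 genes had differences of opposite sign, given below.

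Across the 31 genes the question was whether interferon targets differed between the genotypes, and no gene passed the test. The lowest adjusted p was 0.149, for Rsad2, with 0 of 31 genes higher and 0 lower by limma, where 0.0055% of all genes were called higher and 0% lower. Before adjustment, 3 of 31 (9.68%) had a p under 0.05 and were lower in 13del-tg, namely Rsad2, Irf7 and Dhx58, against 5.11% of all genes, and 1 (3.23%) was higher, Mx2, against 1.46%. Without overlap, the 13del-tg pair was below the control pair for 14 of 31 genes (45.2%, against 25.7% of all genes) and above it for 6 (19.4%, against 12.5%). Differences were negative for 21 and positive for 10, where 59.8% of all genes were negative and 40.2% positive. With each array centred on its own median 14 of 31 were positive, against 10743 of all 18193 genes. The median log2 difference of the 31 was -0.28, against -0.093 over all genes, and it was -0.14 without 13del-tg 3. With 2 arrays a genotype, the smallest p of an exact two-sided permutation test is 0.333 for any single gene.

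**Figure D1:**
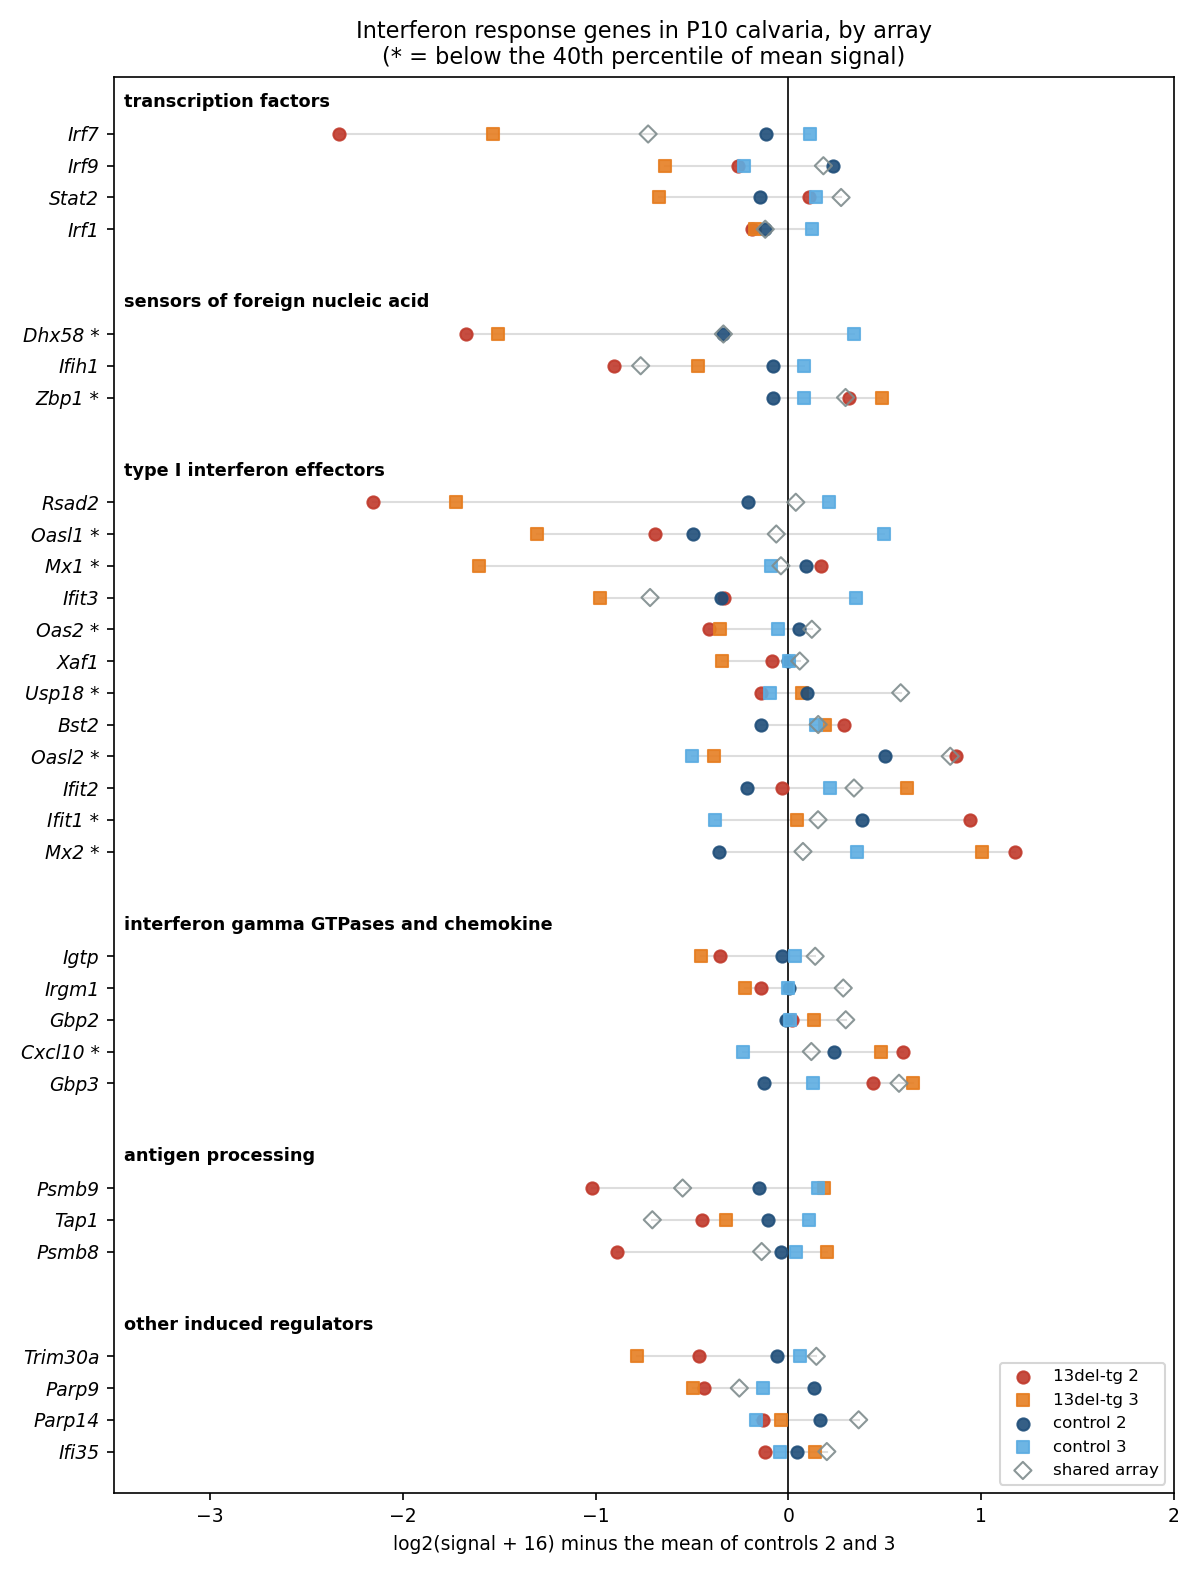
Each row is 1 of 31 interferon response genes, grouped by role, and each point 1 array, plotted as log2(signal + 16) minus the mean of controls 2 and 3 on the horizontal axis. Rsad2, Irf7 and Dhx58 have both 13del-tg points well to the left of both controls. The other genes have smaller differences, and in some of them the groups overlap. Asterisks mark 10 genes of low mean signal.

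Rsad2 encodes viperin, a radical SAM enzyme that makes a chain-terminating nucleotide and blocks the growth of many viruses. Its signal was 502.2 and 681.1 in 13del-tg 2 and 3, against 1978 and 2649 in controls 2 and 3. Both 13del-tg arrays were far below both controls, and the shared array, at 2352, lay between the controls. The log2 difference was -1.94 (SE 0.24), 3.84-fold lower, with an adjusted p of 0.149 and an unadjusted p of 0.000131 that ranked 16 by size of p among 18193 genes. A second probe set of Rsad2 gave 176.5 and 195.4 in 13del-tg, against 430.7 and 635.8 in controls, and 804.7 on the shared array. Another gave 161.2 and 172.5 in 13del-tg, against 452.2 and 611.7 in controls, and 719.8 on the shared array. All 3 probe sets thus separated the genotypes in the same direction, with differences of -1.94, -1.42 and -1.57, and on the shared array they gave values within or above the controls. Counting the shared array as 13del-tg gave -1.28 for Rsad2, and counting it as control gave -1.95. The gene lies at chr12:26442743-26456452.

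The transcription factors of the response come next. Irf7 encodes the factor that amplifies type I interferon production. It had a signal of 20.1 and 46.7 in 13del-tg, against 151.9 and 180.6 in controls. The groups did not overlap, and the shared array, at 93.7, lay between them. The log2 difference was -1.93 (SE 0.45, adjusted p = 0.568), and it ran from -2.39 to -1.25 over the alternative settings. The 13del-tg signals were below 61.9, the signal at the 40th percentile of all probe sets, so the size depends on the pseudocount of 16 added before the log.

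Stat2 and Irf9 encode the partners that carry the type I signal to the response element. Irf9 had 282.9 and 214 in 13del-tg, against 404.5 and 289 in controls, a difference of -0.45 (SE 0.32, adjusted p = 0.78). The higher 13del-tg value and the lower control value of Irf9 were close to each other, and the shared array had 390.2. Stat2 had 183.6 and 100.3 in 13del-tg, against 151.6 and 188.9 in controls, so its groups overlapped, and the shared array had 208. Its difference of -0.28 (SE 0.41) turned to 0.11 without 13del-tg 3. Irf1, the early factor shared with the gamma pathway, had 779.9 and 789.9 in 13del-tg and 819 and 971.8 in controls (-0.18, SE 0.20, and 0.0025 with arrays centred on the median).

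Among the sensors of viral RNA and DNA, Dhx58 encodes LGP2, which tunes the signalling of its RNA-sensing relatives. It had 11.6 and 14.9 in 13del-tg, against 53.4 and 95.4 in controls, and 53.6 on the shared array. The 13del-tg arrays were lowest, in a range of dim signals. The difference was -1.59 (SE 0.44, adjusted p = 0.669). A second Dhx58 probe set had 39.7 and 4.9 in 13del-tg and 44.6 and 54.3 in controls, and another was dim on all arrays, with a difference of 0.02. Ifih1, which encodes the RNA sensor MDA5, had 205.5 and 283.7 in 13del-tg, against 375.8 and 422.7 in controls, with a difference of -0.69 (SE 0.29, adjusted p = 0.755). Its groups did not overlap, but the shared array, at 227.7, lay among the 13del-tg values. Zbp1, the sensor of Z-form nucleic acid, was dim and had 42.5 and 49.8 in 13del-tg, against 28.4 and 33.7 in controls (0.40, SE 0.40).

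**Figure D2:**
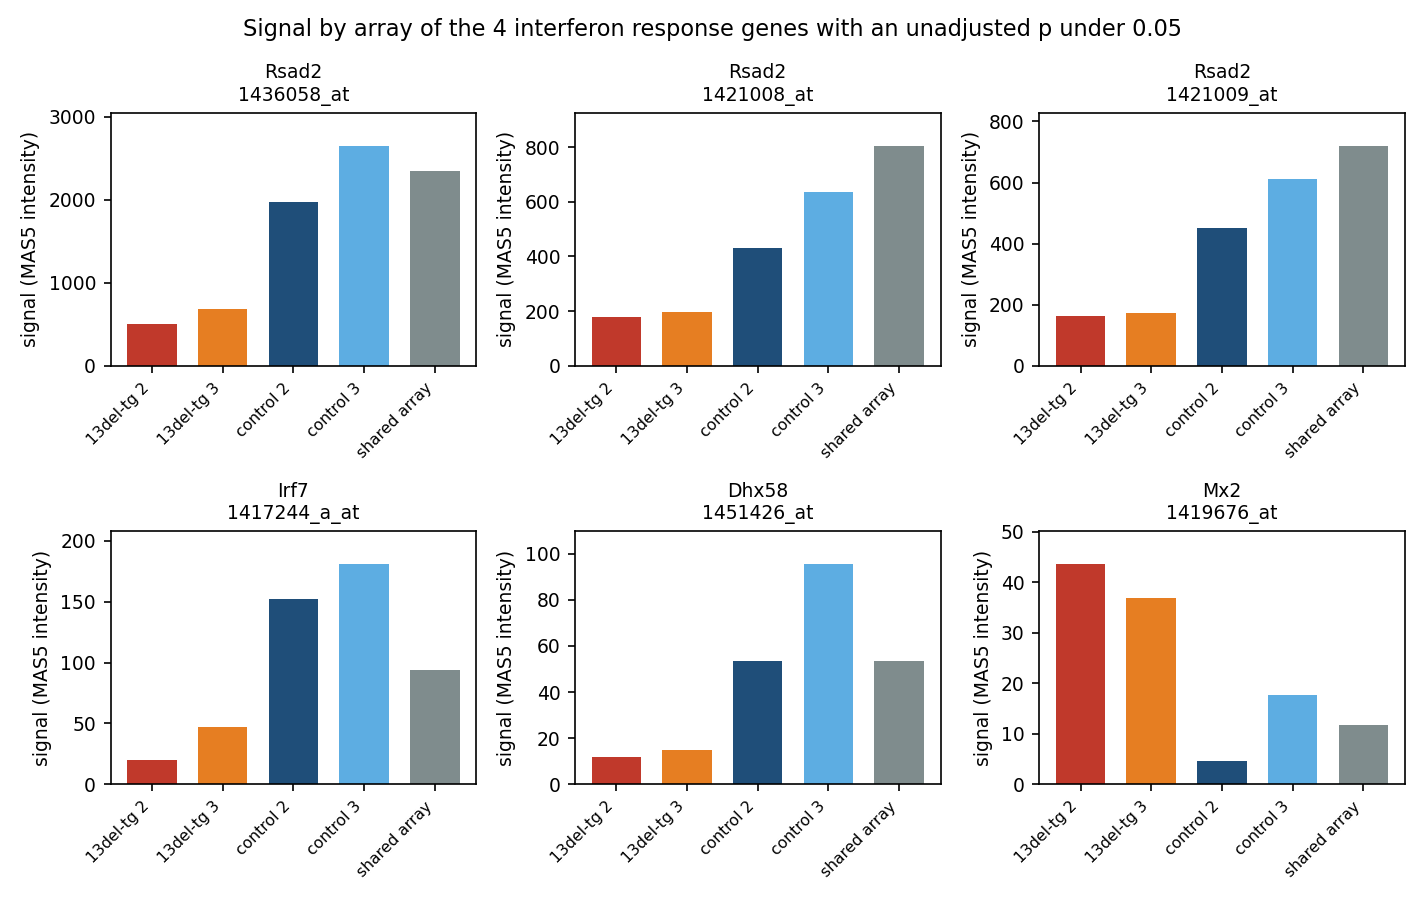
Bars give the deposited signal, in linear MAS5 units from 0, on each array for the 3 probe sets of Rsad2 and the probe set used for Irf7, Dhx58 and Mx2, with a scale of its own in each panel. In all 3 Rsad2 panels both 13del-tg bars are the shortest, whereas in the Mx2 panel, where no signal exceeds 43.5, they are the tallest.

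The antiviral effectors other than Rsad2 went both ways. Mx2, a dynamin-like GTPase gene, had 43.5 and 36.8 in 13del-tg, against 4.5 and 17.7 in controls, and 11.7 on the shared array. All of these signals were dim, and the difference was 1.09 (SE 0.44, adjusted p = 0.752), and 0.48 with a pseudocount of 64. Its neighbour Mx1, the nuclear GTPase gene that many inbred strains carry in a defective form, had 67.2 and 8.3 in 13del-tg and 62.6 and 53.4 in controls. The Mx1 difference of -0.72 (SE 0.63) rested on 13del-tg 3 and was 0.17 without it. Oasl1, which in mice restrains the translation of Irf7, had 42 and 21.9 in 13del-tg, against 50.3 and 116.1 in controls, and 73.6 on the shared array (-0.997, SE 0.51, adjusted p = 0.758).

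The 3 Ifit genes, which encode RNA-binding proteins that block the translation of viral RNA, lie side by side on chromosome 19, from 34550550 to 34650009 of GRCm38.p6. Ifit3 had 167.6 and 101.7 in 13del-tg and 165.7 and 278.7 in controls, and 124.7 on the shared array, a difference of -0.65 (SE 0.42). Ifit2 had 200.8 and 324.2 in 13del-tg and 175.2 and 241.6 in controls, a difference of 0.29 (SE 0.37). Ifit1 had 71.3 and 30.8 in 13del-tg and 43.2 and 18.8 in controls, a difference of 0.49 (SE 0.51). The groups overlapped for each of the 3 genes. Of the remaining effectors, Oas2, Xaf1 and Usp18 had negative differences from -0.38 to -0.037 and Bst2 and Oasl2 positive ones of 0.24 each, all smaller than their standard errors. In all, 7 of the 12 measured effectors were negative and 5 positive, with a median of -0.13.

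Of the 5 genes best known as targets of interferon gamma, 2 had a negative and 3 a positive difference. Igtp and Irgm1 encode GTPases that attack the vacuoles of intracellular pathogens. Igtp had 485.2 and 452.5 in 13del-tg, against 611.4 and 639.7 in controls, with no overlap, a difference of -0.40 (SE 0.22, adjusted p = 0.758) and a shared array at 690.3. Irgm1 had 237.3 and 223.7 in 13del-tg, against 264.6 and 262.9 in controls (-0.18, SE 0.29, and 0.0008 with arrays centred on the median). Gbp3, of the guanylate-binding proteins, had a positive difference, with 253.4 and 295.2 in 13del-tg, against 166 and 200.6 in controls, and the shared array at 279.6. The Gbp3 difference was 0.54 (SE 0.31, adjusted p = 0.764). Its neighbour Gbp2 had 275.7 and 299.7 in 13del-tg and 269.6 and 273.6 in controls (0.077, SE 0.28). Cxcl10, the chemokine that draws activated T cells, had 82.3 and 75.1 in 13del-tg, against 60.7 and 39.4 in controls, and 54.8 on the shared array, a difference of 0.54 (SE 0.42, adjusted p = 0.783).

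Genes of antigen processing lie next to each other in the major histocompatibility region, on chromosome 17 from 34182030 to 34201454. Tap1, a chain of the peptide transporter, had 217 and 238.4 in 13del-tg, against 279.6 and 326.7 in controls, a difference of -0.39 (SE 0.29, adjusted p = 0.782), and the shared array was below all of these at 179.1. Psmb9 and Psmb8 encode catalytic subunits of the immunoproteasome. Psmb9 had 164.2 and 398.3 in 13del-tg and 311.5 and 389.8 in controls, and Psmb8 had 237.6 and 524 in 13del-tg and 442 and 466.8 in controls. In both genes 13del-tg 2 was the lowest of the 5 arrays, and the shared array, at 233.2 for Psmb9 and 411.1 for Psmb8, was also below both controls. Their differences of -0.42 (SE 0.44) and -0.35 (SE 0.39) turned to 0.18 and 0.20 without 13del-tg 2.

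Among other induced regulators, Trim30a, whose product damps Toll-like receptor signalling in mice, had 106.5 and 82 in 13del-tg, against 146.2 and 160.1 in controls, and 170.9 on the shared array (-0.63, SE 0.37, adjusted p = 0.764). Its second probe set was also negative, at -0.43, with overlapping groups. Parp9, an ADP-ribosyltransferase that works with a ubiquitin ligase, had 419.4 and 402.5 in 13del-tg, against 629.8 and 522.9 in controls, and 478.5 on the shared array (-0.47, SE 0.24, adjusted p = 0.758). For both genes the 13del-tg arrays were the lowest of the 5. Its relative Parp14 and Ifi35 had overlapping groups and differences of -0.085 (SE 0.37) and 0.0089 (SE 0.19). Over all 31 genes, 11 had several probe sets, and for 3 of these, Dhx58, Psmb8 and Xaf1, the probe sets differed in sign.

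In the 31 genes the shared array did not sit on one side, although its Col10a1 signal, 152.2, lay between those of controls 2 and 3. It was above all 4 other arrays for 10 of the 31 genes, below all 4 for 1, Tap1, and within their range for 20. Of the 5 arrays it was most often the highest. Among the other 4 arrays control 3 was highest for 12 genes, and 13del-tg 2 and 3 were lowest for 11 and 10. Control 3 and the shared array also had the highest median signals of the 5 arrays, at 127.9 and 122.6. These counts were not compared with those over all genes.

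Other genes of interferon signalling, 92 measured of 114 symbols listed with older and newer names, gave no call either. By limma 0 passed in either direction. Before adjustment, at a p under 0.05, 1 was higher (1.09%, against 1.46% of all genes) and 6 were lower (6.52%, against 5.11%). Over the 92 genes the median difference was -0.25, with 68 negative, where 59.8% of all genes were negative. Both 13del-tg arrays were below both controls for 35 (38.0%) and above for 8 (8.70%), to be read against the same shares of all genes, 25.7% and 12.5%. Of the ligands, 6 were measured and none reached the 40th percentile of signal. Ifna2 had 36.5 and 17.6 in 13del-tg and 7 and 3.9 in controls, but 39 on the shared array. Ifna1 had 67.2 and 27.3 in 13del-tg and 11.5 and 22.9 in controls, and 4.7 on the shared array. Ifnb1 had 65.6 and 32 in 13del-tg and 45.6 and 48 in controls.

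None of the 9 receptor chains and kinases reached an unadjusted p of 0.05. Ifnar1 had 934.5 and 919.9 in 13del-tg and 937.5 and 617.8 in controls (0.28, SE 0.25). Ifnar2 had 1770 and 2555 in 13del-tg and 1710 and 1903 in controls (0.24, SE 0.22). The gamma receptor genes Ifngr1 and Ifngr2 had differences of 0.052 (SE 0.18) and -0.29 (SE 0.26), and Ifnlr1 and Il10rb had -0.051 (SE 0.58) and -0.24 (SE 0.19). Of the kinase genes, Jak1 had 0.069 (SE 0.19), Jak2 -0.22 (SE 0.18) and Tyk2 -0.43 (SE 0.32).

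All 6 of the other STAT and IRF family or partner genes measured were negative. Irf8, a factor of B cells and myeloid cells, had 182 and 246.1 in 13del-tg, against 344 and 442.5 in controls, and 356.1 on the shared array (-0.83, SE 0.31, adjusted p = 0.752). Irf5 had -0.32 (SE 0.24) and Ciita -0.70 (SE 0.55). Of 10 sensing genes and adaptors 8 were negative, the smallest p belonging to Myd88 (-0.32, SE 0.21), Sting1 (-0.48, SE 0.32) and Ddx58, the gene of RIG-I (-0.43, SE 0.31).

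Of 33 other induced genes 24 were negative. Isg20, an exonuclease gene, had 330.1 and 815.4 in 13del-tg, against 1333 and 1570 in controls, and 988.3 on the shared array (-1.45, SE 0.40, adjusted p = 0.669). Slfn1 had 7.7 and 19.1 in 13del-tg, against 63.5 and 61.1 in controls, but 3.7 on the shared array (-1.44, SE 0.42). Slfn5 had 63.3 and 32.9 in 13del-tg, against 105.1 and 143.8 in controls (-1.16, SE 0.45). None of the 3 overlapped between the genotypes, and on the shared array Isg20 lay between the groups, Slfn1 below both and Slfn5, at 166.9, above both.

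Of 12 other gamma targets 8 were negative, and Cxcl9, a chemokine gene related to Cxcl10, had 51.9 and 64 in 13del-tg, against 27.1 and 8.7 in controls (1.18, SE 0.46, adjusted p = 0.752). The GTPase genes Iigp1 and Irgm2 had -0.76 (SE 0.32) and -0.82 (SE 0.35), and the guanylate-binding protein genes Gbp6, Gbp7 and Gbp8 had -0.60 (SE 0.44), -0.32 (SE 0.29) and 0.035 (SE 0.40), with overlapping groups. Of 8 other class I genes 7 were negative, with the smallest p for Tapbp (-0.30, SE 0.17), Erap1 (-0.53, SE 0.31) and B2m (-0.30, SE 0.19). Among 9 feedback inhibitors, Ptpn6, a phosphatase gene of blood cells, had 400.2 and 378.6 in 13del-tg, against 685.5 and 720.5 in controls, and 928.6 on the shared array (-0.83, SE 0.22, adjusted p = 0.661). Socs1 had -0.90 (SE 0.39). Ube2l6, kept in this list although its product conjugates ISG15, had -0.74 (SE 0.33).

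Several lists of blood cell markers were low on the same arrays. For comparison, 59.8% of all genes were negative and 5.11% were lower at an unadjusted p under 0.05. All 8 measured B cell markers were negative, with a summed signal of 2758 and 5505 in 13del-tg, against 8928 and 9465 in controls, and 5 had an unadjusted p under 0.05. The brightest were Vpreb1, with 339.7 and 1811 in 13del-tg against 2938 and 3914 in controls, Ebf1, with 1133 and 621.8 against 1294 and 671, and Blnk, with 471.6 and 1108 against 1507 and 1100. All 6 erythroid markers were negative, with sums of 7121 and 7891 in 13del-tg, against 19203 and 19383 in controls, and 5 had an unadjusted p under 0.05. All 9 neutrophil markers were negative, with sums of 18871 and 58511 in 13del-tg, against 44032 and 62920 in controls, so that 13del-tg 2 alone was low. None of these markers passed the test over all genes.

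Macrophage and monocyte markers had a median difference of -0.071 over 12 genes, with sums of 22521 and 25781 in 13del-tg, against 26463 and 27067 in controls. Of 7 plasmacytoid dendritic cell markers 4 were negative, and Siglech had 67 and 58.1 in 13del-tg against 19.4 and 137.2 in controls, whereas Spib, which B cells also express, had 85.5 and 177.1 against 594.5 and 930.3. All 6 conventional dendritic cell markers were negative (sums 460.5 and 511.6 in 13del-tg, 526.9 and 883.4 in controls), as were 8 of 9 T and NK cell markers (sums 532.7 and 672.7 in 13del-tg, 614.2 and 996.3 in controls). Of the bone cells, 7 osteoclast markers were all negative (median -0.34, sums 51224 and 64859 in 13del-tg, 58966 and 68384 in controls), and 7 osteoblast markers had a median of 0.087. Endothelial markers had a median of -0.23 over 6 genes. The muscle markers had a median of 1.60 and the cartilage markers one of -1.58, with the sums given at the start. The part of these cell types in the interferon gene values was not tested. On the shared array the summed B cell and erythroid signals, 6762 and 14571, lay between the genotypes.

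**Figure D3:**
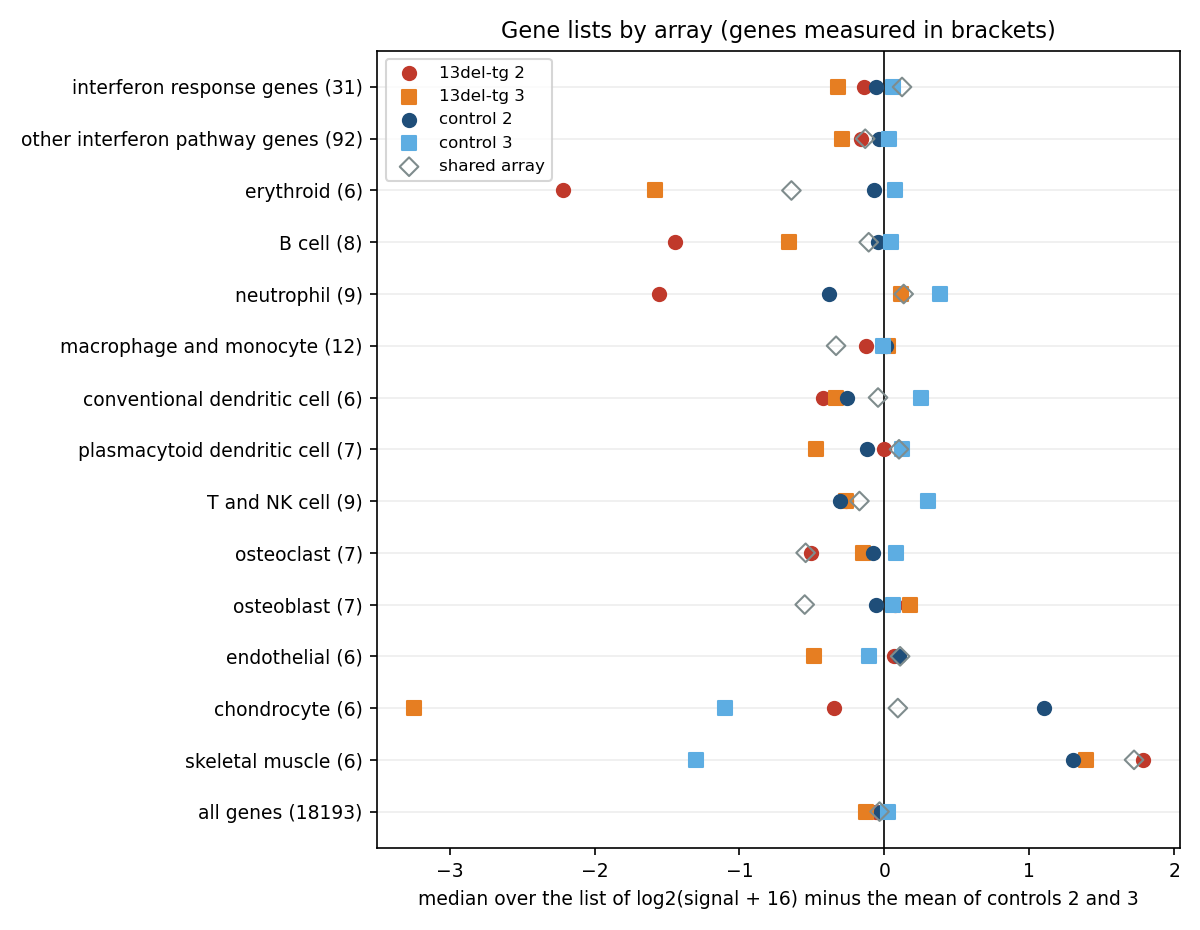
Each row is a gene list with the number of genes measured, and each point gives 1 array's median over the list of log2(signal + 16) minus the mean of controls 2 and 3. For the 31 interferon response genes the medians are -0.14 and -0.32 in 13del-tg 2 and 3 and -0.059 and 0.059 in controls 2 and 3, far closer together than for the erythroid list, at -2.22 and -1.58 in 13del-tg and -0.072 and 0.072 in controls.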

How the data were processed

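The authors deposited intensities in linear units, with 1 value for each probe set and sample. MAS5 is the tool named, per the submitters' processing notes, and its version is not stated. RNA came from cryosections by TRIZOL extraction and was converted to antisense RNA with a biotin label, per the labels' protocols. The trimmed mean was 500.003 on each of the 5 distinct arrays, so the deposited intensities share that mean. The median signals differed, at 105.6 and 93.5 in 13del-tg 2 and 3 and 103.4 and 127.9 in controls 2 and 3. The shared array had a median of 122.6. MAS5 signals are noisy when low. The number of arrays limits the precision.

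The array's 64 control probe sets did not enter. Of 45037 others, 34945 had 1 gene symbol, 932 several and 9160 none in the platform annotation, and 34741 matched RefSeq gene numbers. Signals were transformed as log2(signal + 16), with no further normalization and no filter. The 2 arrays of each genotype were compared by limma 3.58.1 under R 4.3.3 (lmFit, then eBayes with a mean-variance trend), as 13del-tg minus control, two-sided. P-values were adjusted by Benjamini-Hochberg over 18193 genes, and 0.05 was the threshold. Residual degrees of freedom were 2, prior degrees of freedom 4.54, and the median SE was 0.34. The pseudocount makes folds of dim genes too small. The code was tested on simulated data.

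Values on every array are given for the 14 genes with the smallest unadjusted p and for Irf7, Stat2 and Cxcl10 by name. Of the pathway lists, the receptors, the kinases and up to 3 genes with the smallest p are named, and of the marker lists up to 3 of the brightest and Siglech. Other genes, such as Irf1, Mx1, Ifit1, Psmb8, Gbp6 and Spib, complete a family or list and were chosen after their values were seen. The members and lists were chosen with earlier results of these data known. Nothing beyond the word biological in the labels describes the source of the replicates, so p-values measure the spread between these arrays. Alternatives covered the pseudocount, filters, normalization, probe set choice, eBayes options, a replicate block, each array left out, and the shared array's label.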

Additional observations from a re-analysis of the deposited data

How the results depend on the processing

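Of 502 values of single genes under 17 alternatives, 478 kept their sign and their side of the threshold and 23 changed sign without a call, and 19 of the 31 genes never changed sign. The exception was Rsad2 with a replicate block, where it passed (adjusted p = 9.22e-05, difference -1.94), so that 1 interferon response gene and 1 pathway gene, Isg20 (adjusted p = 0.00669), were called. Under the other alternatives 0 of the 31 passed by limma, with 0 to 1 higher and 2 to 6 lower at an unadjusted p under 0.05, and leaving out 1 array gave 0 calls among them and 0 in the pathway. The replicate numbers are shared by label only. Deviations of same-numbered arrays correlated at 0.15 over all genes and at 0.31 over the interferon response genes, from 2 pairs. The block moved the count of all called genes from 1 to 271. The adjusted p of Rsad2 otherwise ran from 0.0551 (without control 2) to 1 after rounding (shared array under both labels). The number of genes called was 2 with a pseudocount of 1, with a 60th percentile filter and with the mean of a gene's probe sets, 8 with a 40th percentile filter (2 higher, 6 lower), 9 with robust eBayes, 15 with arrays centred on the median (2 higher, 13 lower), and 0 without the trend and with the shared array under both labels. Leaving out 1 array, which assumes that the lone array varies like the others, gave 1 to 94, the highest without control 2 (78 higher, 16 lower). The median of the 31 differences was -0.12 with quantile normalization and -0.099 with centred arrays. It was -0.16 when the shared array was given to 13del-tg and -0.23 when it was given to the controls. Leaving out 1 array gave -0.32 to -0.14. Centring moved the median of all genes from -0.093 to 0.091. Relative to it the median of the 31 was -0.19 in both, which centring cannot change, because it shifts all genes of an array equally. Over the other alternatives this relative median ran from -0.27 (40th percentile filter) to -0.079 (mean of a gene's probe sets). With quantile normalization it was -0.098. The cause of these shifts was not tested. Dim signals limit 10 of the 31 genes, which lay below the 40th percentile.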
